A study of Homo sapiens with 18 samples.

Results

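PTPN6, 8 other leukocyte tyrosine phosphatase genes and PTPRCAP, the gene of a protein bound to one of them, were followed in 3 human diffuse large B cell lymphoma lines given an inhibitor of BCL6. The 10 genes, of 23250 gene symbols listed for each library, were PTPN6, PTPN11, PTPRC, PTPRCAP, PTPN18, PTPN22, PTPN12, PTPN7, PTPN1 and PTPN2. They were chosen by name: PTPN6 because its RNA was much lower after treatment, and the other 9 as its relatives in function. PTPN6's own response is therefore a description, with no test, and among the 10 genes the tests of the response concern the relatives. The established lines were SUDHL6, Farage and SUDHL4. Cells of each line received 10 µM of a BCL6 inhibitor, which has a code name in the labels, or DMSO, the vehicle, and both lasted 12 h. Each of the 6 groups had 3 RNA-seq libraries. There was 1 compound, 1 dose and 1 time, and no untreated cells are analysed here.

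Protein tyrosine phosphatases remove phosphate from tyrosines and so set how long a kinase signal lasts. In B cells, PTPN6 (SHP-1) binds through its SH2 domains to phosphorylated inhibitory receptors such as CD22 and dampens signalling from the B cell receptor. PTPRC (CD45) works the other way at the start of the pathway, where it removes an inhibitory phosphate from Src family kinases. BCL6, the target of the compound, is a transcriptional repressor of germinal centre B cells.

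Depth, as reads in the listed genes, was 6.29 to 17.35 M in treated SUDHL6 and 7.36 to 20.6 M in SUDHL6 DMSO, and 16.87 to 25.49 M in Farage and SUDHL4. In the shallowest library 3 reads were worth 0.362 CPM, a limit that covers counting error only. Treated SUDHL6 replicate 1 stood apart: over the 443 genes with a 4-fold difference in that line, its median position on the way to the DMSO level was -27.97%, farther from DMSO than its partners, which lay 12.48% and 12.56% toward DMSO. SUDHL4 DMSO replicate 3 lay a median of 11.27% of the difference toward the treated level, over 605 such genes, against -5.74% and -7.34% for its partners. All 5 B cell markers (MS4A1, CD79A, CD79B, PAX5 and BLNK) were detected in every library and were called lower in each line. So were 28.3% of all genes tested. The summed level of these markers was 1664 to 2566 CPM in treated SUDHL6 against 4724 to 4944 CPM with DMSO. It was 1210 to 1328 against 2549 to 2715 CPM in Farage, and 2869 to 2929 against 4801 to 5227 CPM in SUDHL4. The 6 T cell markers summed to at most 2.72 CPM, the 4 NK cell markers to at most 0.532 CPM and the 4 epithelial or stromal markers to at most 7.38 CPM, in Farage DMSO. The 6 myeloid markers summed to 7.58 to 20.95 CPM in treated libraries and 4.82 to 7.82 CPM with DMSO, and CD68 alone ranged from 3.795 to 18.2 CPM. Among the T cell markers the highest value of any library was 2.21 CPM, for TRAT1, and the lowest of these maxima was 0.0356 CPM, for CD3D. Among the NK cell markers they were 0.434 CPM for NKG7 and 0.0377 CPM for KLRD1. The part of the B cell and myeloid markers in the results was not tested. In such bulk samples fewer cells of a type and less RNA per cell cannot be told apart. BCL6's own RNA was called lower in SUDHL6 (log2 fold change -0.35, limma adjusted p = 0.0409) and SUDHL4 (-1.09, adjusted p = 4.14e-06), and the test was not passed in Farage (0.04, adjusted p = 0.814). Of all genes 41.3% were called lower in SUDHL6 and 46.2% in SUDHL4. In SUDHL6 BCL6 averaged 255 ± 59.7 CPM after the inhibitor and 325.4 ± 75.4 CPM with DMSO (SD, n = 3 each). Its call there is close to the threshold and uses a spread shared over the 6 groups.

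PTPN6 RNA was lower in every treated library than in every DMSO library of its line. PTPN6 in SUDHL4 was at 22.3, 24.7 and 22.8 CPM after the inhibitor and at 355.8, 362.0 and 291.3 CPM with DMSO. PTPN6 in Farage was at 59.3, 56.3 and 73.7 CPM after the inhibitor and at 461.3, 495.3 and 465.1 CPM with DMSO. In SUDHL6, where the gene was lowest to begin with, it was at 2.93, 7.28 and 9.66 CPM after the inhibitor and at 44.7, 32.1 and 58.9 CPM with DMSO. The groups did not overlap in any line, and the lowest value of all was in treated SUDHL6 replicate 1.

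As a share of the DMSO mean, treated PTPN6 was at 6.91% in SUDHL4, 13.3% in Farage and 14.6% in SUDHL6. On the log2(CPM + 1) scale the differences were -3.79, -2.90 and -2.68, with an SE of 0.267 in each line, and -3.12 (SE 0.154) in the mean of the lines. No gene of the 12769 tested had a lower difference in SUDHL4, 20 had one in Farage, 56 in SUDHL6, and 2 in the mean of the lines. These ranks are what led to the gene's choice and support nothing further. Without treated SUDHL6 replicate 1 the SUDHL6 difference was -2.26, and over all single libraries left out the mean stayed between -3.22 and -2.98.

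**Figure D1:**
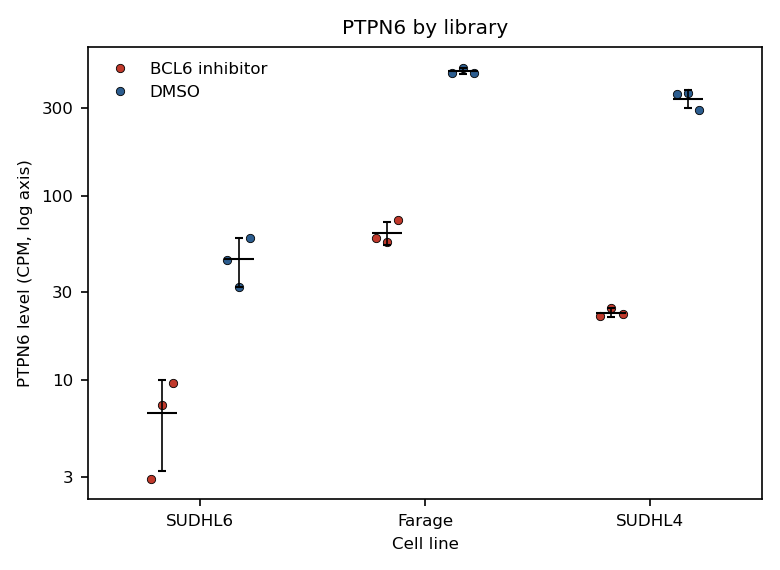
PTPN6 level in CPM (log axis) in each library, with the inhibitor left of DMSO in each of the 3 lines. Points are libraries and bars mark the group mean and SD (n = 3). The treated points lie between 2.93 and 73.7 CPM, and within each line all of them lie below the DMSO points.

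With DMSO, PTPN6 averaged 473.9 ± 18.6 CPM in Farage, 45.3 ± 13.4 CPM in SUDHL6 and 336.4 ± 39.2 CPM in SUDHL4 (SD, n = 3 each). These are levels of DMSO libraries alone, but the SE below comes from the fit to all 18 libraries, and the DMSO levels also enter the fall for which PTPN6 was chosen. The differences between lines are therefore given for PTPN6 as sizes, with no p-value. Farage exceeded SUDHL6 by 3.40 on the log2 scale (SE 0.267), and SUDHL6 lay below SUDHL4 (log2 difference -2.90). Of all genes 71.3% and 68.6% passed these comparisons in limma. Farage and SUDHL4, the neighbours in the order of levels, differed by 0.50, in a comparison passed by 67.1% of genes. After the inhibitor PTPN6 averaged 63.1 ± 9.28 CPM in Farage, 6.62 ± 3.42 CPM in SUDHL6 and 23.3 ± 1.25 CPM in SUDHL4 (SD, n = 3 each), ranked as with DMSO.

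RefSeq gives 300-base promoter windows on GRCh38.p14, from 250 bases before a transcription start to 50 after it, for 8 of the 10 genes (11 windows). PTPN11 and PTPRCAP had none. Printed here are the windows of PTPN6 and of PTPN18 and PTPRC, the relatives with a window that fell in all 3 lines. PTPN6 is known for an upstream promoter used in epithelial cells and a downstream one used in blood cells. Both windows lie on the plus strand of chromosome 12, at chr12:6946327-6946626 and chr12:6951106-6951405. The PTPN18 window is chr2:130355806-130356105 and the PTPRC window chr1:198638790-198639089, both on the plus strand. Capitals mark matches on either strand to the GC box GGGCGG, the CCAAT box CCAAT or the PU.1 motif GAGGAAGT. Base 251 is the start.
PTPN6, upstream start: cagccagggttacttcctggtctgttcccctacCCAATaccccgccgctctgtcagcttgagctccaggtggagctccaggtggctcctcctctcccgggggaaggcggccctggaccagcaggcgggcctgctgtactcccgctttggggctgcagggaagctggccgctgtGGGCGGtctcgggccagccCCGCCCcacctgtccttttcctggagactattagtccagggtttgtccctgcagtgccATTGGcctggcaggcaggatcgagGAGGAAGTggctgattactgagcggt
PTPN6, downstream start: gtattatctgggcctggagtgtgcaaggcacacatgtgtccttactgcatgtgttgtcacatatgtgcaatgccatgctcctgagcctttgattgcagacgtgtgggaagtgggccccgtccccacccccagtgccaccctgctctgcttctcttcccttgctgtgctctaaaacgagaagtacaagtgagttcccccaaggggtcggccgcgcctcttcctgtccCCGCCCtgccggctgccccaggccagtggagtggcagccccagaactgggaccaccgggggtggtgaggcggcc
PTPN18: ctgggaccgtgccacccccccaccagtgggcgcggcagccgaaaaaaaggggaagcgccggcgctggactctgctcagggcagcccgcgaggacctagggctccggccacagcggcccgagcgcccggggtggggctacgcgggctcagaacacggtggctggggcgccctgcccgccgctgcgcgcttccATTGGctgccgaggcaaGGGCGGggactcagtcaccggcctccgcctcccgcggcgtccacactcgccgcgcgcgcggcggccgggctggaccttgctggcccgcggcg
PTPRC: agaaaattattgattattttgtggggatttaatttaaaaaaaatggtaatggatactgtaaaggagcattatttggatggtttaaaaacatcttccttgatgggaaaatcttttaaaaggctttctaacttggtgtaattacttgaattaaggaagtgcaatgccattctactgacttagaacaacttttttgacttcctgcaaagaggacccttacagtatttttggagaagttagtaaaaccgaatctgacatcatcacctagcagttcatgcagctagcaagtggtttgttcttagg

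The upstream PTPN6 window held GC boxes at bases 174 to 179 and 193 to 198, CCAAT boxes at bases 34 to 38 and 251 to 255, and the PU.1 motif at bases 275 to 282. The downstream window held a single GC box, at bases 227 to 232. PTPN18 had a CCAAT box at bases 192 to 196 and a GC box at bases 209 to 214, and the PTPRC window had none of these letters. The windows also differed in base composition, with 77% G and C in PTPN18, 65% and 61.7% in the PTPN6 windows and 33.7% in PTPRC. Of all 35116 RefSeq windows, 45% held the GC box, 34.6% the CCAAT box and 2.59% the PU.1 motif. The BCL6 core TTCCTAGAA, in 0.373% of all windows, and the STAT motif TTCNNNGAA that contains it, in 7.66%, were in none of the 11 windows of these genes. The files do not say which start was used in these cells, and a match is a match of letters only.

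The relatives moved in both directions. Every one of the 10 genes was above 1 CPM in all 18 libraries, so none was lost to the filter. The median log2 fold change of the 9 relatives was -0.10 in SUDHL6, -0.19 in Farage, -0.28 in SUDHL4 and -0.19 in the mean of the lines. Over all genes tested the medians were -0.13, -0.22, -0.21 and -0.24. In SUDHL6 3 of the 9 fell, beside 41.3% of all genes tested, and 1 rose, beside 26.8%. In Farage 3 of 9 fell, beside 46.5% of all genes, and 0 of 9 rose, beside 25.4%. For that count of 0, 1 relative was higher at an unadjusted p under 0.05 in limma, PTPN7, and edgeR and DESeq2 on the recovered reads each called 4. Of all 12769 genes edgeR and DESeq2 called 4322 and 4413 higher in Farage. In SUDHL4 4 of 9 fell, beside 46.2%, and 1 rose, beside 24.3%. In the mean of the lines 5 of 9 fell, beside 53.8%, and 3 rose, beside 30.1%. By non-overlap, 3 of 9 relatives in SUDHL6 had all treated libraries below all DMSO libraries, beside 36.5% of all genes, and 1 had them above, beside 24.4%. The numbers were 5 below (53.2% of genes) and 1 above (30.6%) in Farage, and 5 below (51.6%) and 3 above (28.9%) in SUDHL4. None of these shares is read as a result about the relatives.

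The relatives PTPN18, PTPRCAP and PTPRC fell in each line with no overlap between treated and DMSO libraries. Of all genes tested 28.3% were called lower in each line, and 28.9% had every treated library below every DMSO library in each line. By size, 111 genes of 12769 had a lower mean change than PTPN18 and 229 a lower one than PTPRCAP, against 2210 for PTPRC.

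**Figure D2:**
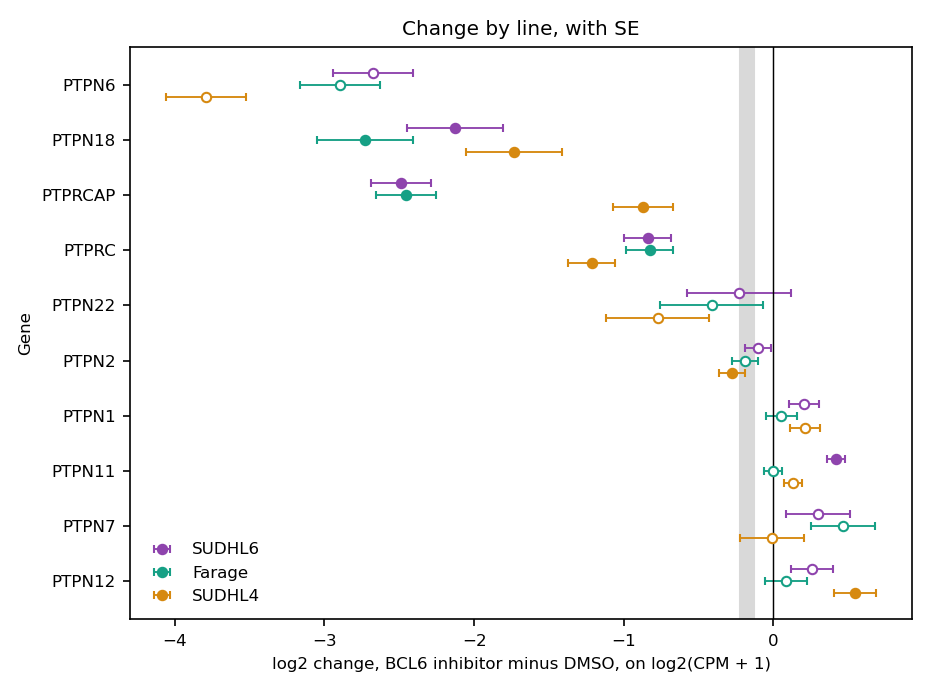
Log2 fold change (inhibitor over DMSO, log2(CPM + 1) scale) of each gene in each line, with bars of 1 SE. Filled points passed the test, open points did not or, for PTPN6, had no test, and the grey band spans the medians of all genes over the lines. PTPN6, PTPN18 and PTPRCAP reach below -2, whereas the other genes stay between -1.21 and 0.55.

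PTPN11 (SHP-2) is the closest relative of PTPN6 by domains, with the same SH2 domains in front of the phosphatase, but in most settings it promotes signalling to ERK. Its RNA was 224.6, 227.9 and 255.5 CPM in treated SUDHL6 and 171.1, 172.6 and 184.6 CPM with DMSO. PTPN11 in Farage was 214.6, 219.6 and 225.7 CPM after the inhibitor and 223.2, 212.0 and 225.6 CPM with DMSO. PTPN11 in SUDHL4 was 235.7, 242.3 and 247.6 CPM after the inhibitor and 219.9, 219.2 and 222.6 CPM with DMSO. All treated values exceeded all DMSO values in SUDHL6 and SUDHL4, and the groups overlapped in Farage.

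PTPN11 rose in SUDHL6 (log2 fold change 0.42, SE 0.0606, limma adjusted p = 1.29e-05) and in the mean of the lines (0.18, SE 0.035, adjusted p = 0.000129). At the deposited scale the test was not passed in SUDHL4 (0.13, adjusted p = 0.0624) or in Farage (-0.00145, adjusted p = 0.989). With median-of-ratios scaling it was passed in SUDHL4 (0.44, limma adjusted p = 2.02e-05) and Farage (0.25, adjusted p = 0.00311), as it was in edgeR and DESeq2. At the deposited scale the SUDHL4 value passed without treated SUDHL6 replicate 1 (limma adjusted p = 0.0488) or 3 (adjusted p = 0.0362). The response of 2 of the 9 relatives differed among the lines, PTPN11 and PTPRCAP, as did that of 55.9% of all genes. Without treated SUDHL6 replicate 1 the number was 6, beside 8015 of 12709 genes. For PTPN11 the adjusted p of the F-test was 0.00192. Its response was 0.42 higher in SUDHL6 than in Farage (adjusted p = 0.00117, passed by 36.8% of genes) and 0.29 higher than in SUDHL4 (adjusted p = 0.0162, passed by 35.0%). The log2 ratio of PTPN6 to PTPN11 CPM was -5.32 ± 0.827 in treated SUDHL6 and -2.00 ± 0.393 with DMSO, -1.81 ± 0.178 against 1.11 ± 0.103 in Farage, and -3.38 ± 0.0755 against 0.60 ± 0.186 in SUDHL4 (SD, n = 3 each). This ratio was chosen after its values were seen and was not tested. The CPM are not corrected for gene length, so only its differences between groups can be read.

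PTPRC and PTPRCAP encode partners: PTPRC is the receptor phosphatase CD45 of all blood cells, and PTPRCAP is a small membrane protein bound to it that has no phosphatase domain. PTPRC was 374.1, 663.3 and 383.0 CPM in treated SUDHL6 and 806.0, 862.1 and 787.1 CPM with DMSO. PTPRC in Farage was 291.7, 299.7 and 285.9 CPM after the inhibitor and 544.8, 486.3 and 529.6 CPM with DMSO. PTPRC in SUDHL4 was 535.6, 482.3 and 611.7 CPM after the inhibitor and 1333, 1201 and 1235 CPM with DMSO. Treated SUDHL6 replicate 2 was the highest of its group, and still below every DMSO library of that line. PTPRC fell in SUDHL6 (log2 fold change -0.84, SE 0.157, limma adjusted p = 0.000167), in Farage (-0.83, adjusted p = 0.000173) and in SUDHL4 (-1.21, adjusted p = 3.15e-06), to between 43.2% and 57.9% of the DMSO mean. With any 1 library left out the SUDHL6 value stayed between -1.11 and -0.70. The test among the lines was not passed (adjusted p = 0.23).

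PTPRCAP was 19.8, 37.9 and 25.9 CPM in treated SUDHL6 and 115.5, 191.3 and 170.8 CPM with DMSO. PTPRCAP in Farage was 13.9, 12.2 and 17.1 CPM after the inhibitor and 87.5, 88.9 and 72.6 CPM with DMSO. PTPRCAP in SUDHL4 was 83.3, 85.8 and 75.9 CPM after the inhibitor and 163.9, 155.1 and 133.1 CPM with DMSO. No groups overlapped. The highest treated and lowest DMSO values were 37.9 and 115.5 CPM in SUDHL6, 17.1 and 72.6 CPM in Farage, and 85.8 and 133.1 CPM in SUDHL4. PTPRCAP fell in SUDHL6 (log2 fold change -2.49, SE 0.202, limma adjusted p = 2.79e-08), in Farage (-2.46, adjusted p = 2.05e-08) and in SUDHL4 (-0.87, adjusted p = 0.00102).

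The PTPRCAP response differed among the lines (F-test, limma adjusted p = 0.000216). It was 1.58 less negative in SUDHL4 than in Farage (SE 0.286, adjusted p = 0.000387, passed by 37.4% of genes), and SUDHL6 lay below SUDHL4 by a log2 difference of -1.62 (adjusted p = 0.000423). Between SUDHL6 and Farage the difference was -0.03 (SE 0.286, adjusted p = 0.94). The log2 ratio of PTPRCAP to PTPRC CPM was -4.09 ± 0.179 in treated SUDHL6 and -2.39 ± 0.355 with DMSO, -4.36 ± 0.279 against -2.65 ± 0.208 in Farage, and -2.73 ± 0.263 against -3.06 ± 0.135 in SUDHL4 (SD, n = 3 each). Treated libraries lay below all DMSO libraries in SUDHL6 and Farage and partly overlapped with them in SUDHL4. The ratio was chosen after its values were seen and was not tested. In GENCODE 29, 20 of PTPRCAP's 1292 exon bases (1.55%) are shared with CORO1B on the same strand, which itself had log2 fold changes of -2.08 in SUDHL6, -1.89 in Farage and -1.33 in SUDHL4.

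**Figure D3:**
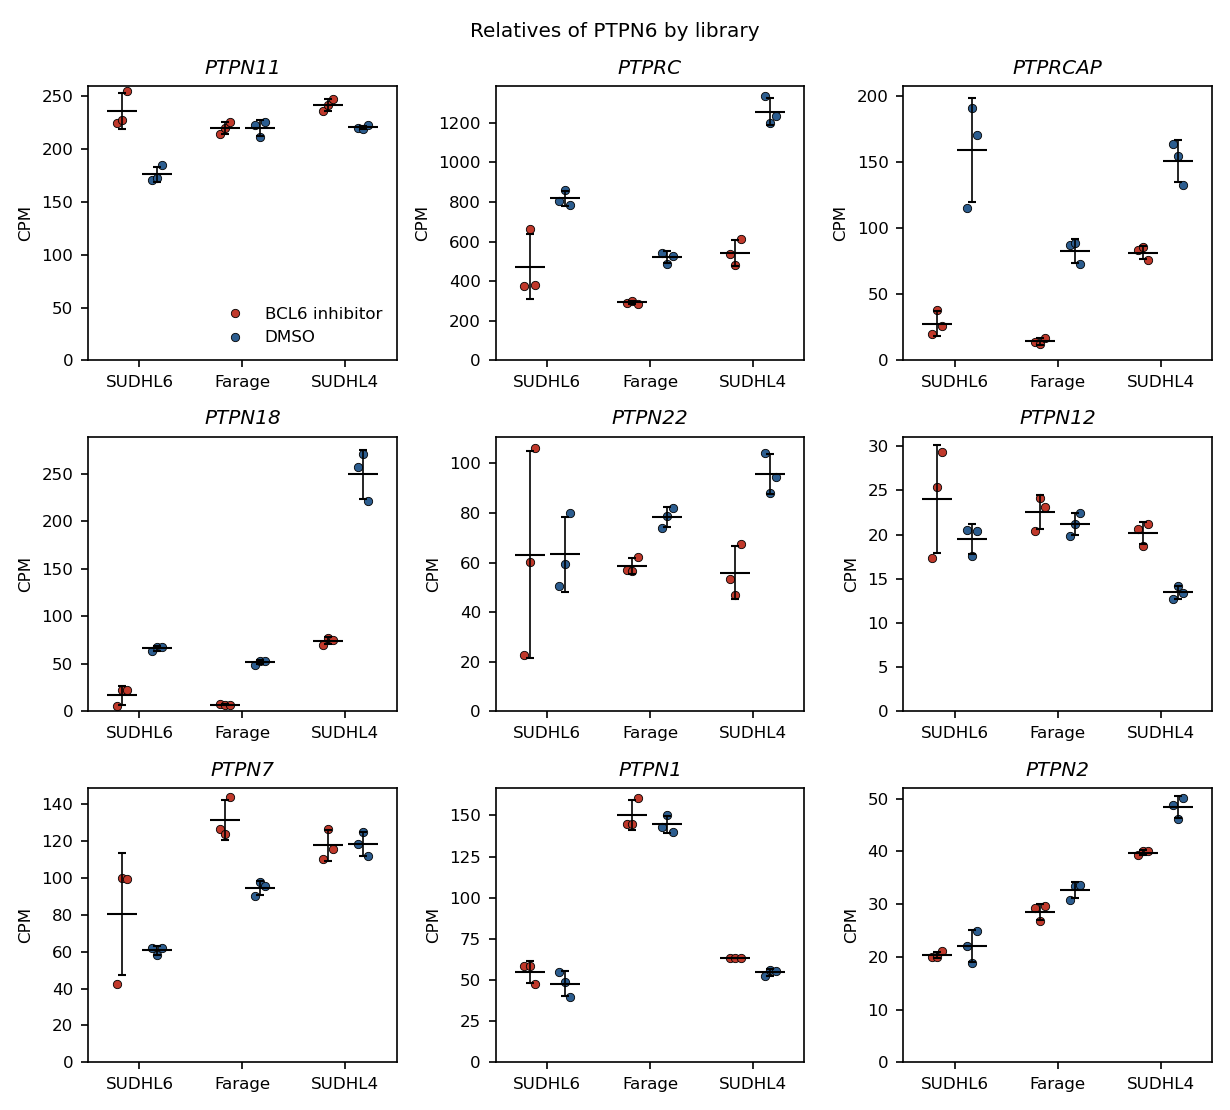
Level in CPM (linear axis from 0) of the 9 relatives in each library, 1 panel per gene, with the inhibitor left of DMSO in each line. Points are libraries and bars mark the group mean and SD (n = 3). PTPN18, PTPRCAP and PTPRC have all treated points below the DMSO points in every line, and the treated PTPN7, PTPN22 and PTPN18 points of SUDHL6 include 1 low library, replicate 1.

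PTPN18, PTPN22 and PTPN12 form the PEST group, cytosolic phosphatases that bind the adaptor PSTPIP1 or the kinase CSK through their tails. The 3 genes went different ways. PTPN18, which is known to act on the receptor kinase HER2, was 5.51, 22.6 and 22.7 CPM in treated SUDHL6 and 63.1, 67.7 and 67.9 CPM with DMSO. PTPN18 in Farage was 7.33, 7.01 and 6.57 CPM after the inhibitor and 49.4, 53.0 and 53.2 CPM with DMSO. PTPN18 in SUDHL4 was 70.2, 77.6 and 74.7 CPM after the inhibitor and 257.4, 270.5 and 221.0 CPM with DMSO. All treated libraries were below all DMSO libraries of their line, with treated SUDHL6 replicate 1 far below its partners.

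PTPN18 fell in SUDHL6 (log2 fold change -2.13, SE 0.32, limma adjusted p = 1.91e-05), in Farage (-2.73, adjusted p = 1.09e-06) and in SUDHL4 (-1.73, adjusted p = 0.00013), which left 25.6%, 13.4% and 29.7% of the DMSO mean. Without treated SUDHL6 replicate 1 the SUDHL6 change was -1.51. The test among the lines was not passed in limma with all libraries (adjusted p = 0.165), but it was in edgeR (adjusted p = 0.0361) and DESeq2 (adjusted p = 0.0241).

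PTPN22, a phosphatase known for restraining antigen receptor signalling together with CSK, was 22.9, 60.3 and 106.4 CPM in treated SUDHL6 and 50.7, 59.4 and 80.1 CPM with DMSO. PTPN22 in Farage was 57.1, 56.7 and 62.2 CPM after the inhibitor and 74.1, 78.9 and 82.2 CPM with DMSO. PTPN22 in SUDHL4 was 53.5, 47.0 and 67.6 CPM after the inhibitor and 104.1, 88.2 and 94.6 CPM with DMSO. The groups were apart in Farage and SUDHL4, and in SUDHL6 the treated libraries spread to both sides of the DMSO libraries. The test was not passed in any single line (-0.23, -0.41 and -0.77 in SUDHL6, Farage and SUDHL4, SE 0.345, limma adjusted p = 0.583, 0.297 and 0.0556). With a separate fit per line, PTPN22 passed in Farage (adjusted p = 0.000132) and SUDHL4 (adjusted p = 0.00186) and not in SUDHL6.

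PTPN22 was called in the mean of the lines (-0.47, SE 0.199, adjusted p = 0.0374). The call was lost with no filter (adjusted p = 0.0597), median-of-ratios scaling (0.278), edgeR (0.415), DESeq2 (0.428) and 9 of the 18 single libraries left out. Those were SUDHL6 DMSO replicate 3, Farage DMSO replicates 2 and 3, treated Farage replicates 1 and 2, SUDHL4 DMSO replicates 1 and 3 and treated SUDHL4 replicates 1 and 2, with adjusted p between 0.0529 and 0.0729. Without treated SUDHL6 replicate 1 the SUDHL6 value was 0.36 (adjusted p = 0.135) and SUDHL4 passed (-0.77, adjusted p = 0.00116). Without treated SUDHL6 replicate 3 both SUDHL6 (-0.725, adjusted p = 0.0272) and SUDHL4 (adjusted p = 0.00951) passed.

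PTPN12 (PTP-PEST), which acts on adhesion and cytoskeletal proteins, was 20.6, 18.7 and 21.2 CPM in treated SUDHL4 and 12.8, 14.2 and 13.4 CPM with DMSO, without overlap. PTPN12 in SUDHL6 was 17.3, 25.4 and 29.4 CPM after the inhibitor and 20.5, 17.6 and 20.5 CPM with DMSO. PTPN12 in Farage was 20.4, 24.1 and 23.1 CPM after the inhibitor and 19.9, 21.3 and 22.4 CPM with DMSO. PTPN12 rose in SUDHL4 (log2 fold change 0.55, SE 0.141, limma adjusted p = 0.00238) and in the mean of the lines (0.30, adjusted p = 0.00298). The test was not passed in SUDHL6 (0.26, adjusted p = 0.118) or Farage (0.09, adjusted p = 0.607), but with median-of-ratios scaling it was in both (limma adjusted p = 0.0066 and 0.0278). PTPN12 passed in SUDHL6 without treated SUDHL6 replicate 1 (0.47, adjusted p = 0.000894), the lowest library of its group.

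PTPN7 (HePTP), a blood cell phosphatase that binds and switches off the MAP kinases ERK and p38, was 126.1, 123.7 and 143.5 CPM in treated Farage and 90.2, 97.4 and 95.6 CPM with DMSO. PTPN7 in SUDHL6 was 42.3, 99.97 and 99.1 CPM after the inhibitor and 62.2, 57.9 and 62.0 CPM with DMSO. PTPN7 in SUDHL4 was 110.2, 126.5 and 115.8 CPM after the inhibitor and 118.0, 125.0 and 111.9 CPM with DMSO. The treated libraries were above DMSO in Farage, and also in SUDHL6 apart from replicate 1. With all libraries the test was not passed in limma in Farage (0.47, SE 0.215, limma adjusted p = 0.0621), SUDHL6 (0.30, adjusted p = 0.232), SUDHL4 (-0.01, adjusted p = 0.979) or the mean (0.25, adjusted p = 0.0701). The mean passed with the replicate block (0.25, adjusted p = 0.0499), after median-of-ratios scaling (0.50, adjusted p = 0.000574), in edgeR (0.53, adjusted p = 0.00016) and in DESeq2 (0.53, adjusted p = 3.96e-06), and Farage with a separate fit per line (adjusted p = 0.000135). Without treated SUDHL6 replicate 1 PTPN7 passed in SUDHL6 (0.70, adjusted p = 1.2e-06), Farage (0.47, adjusted p = 1.89e-05) and the mean (0.39, adjusted p = 3.12e-07). Farage also passed without treated SUDHL6 replicate 2 (adjusted p = 0.0411) or 3 (adjusted p = 0.0397); the fit shares 1 spread per gene across lines.

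PTPN1 (PTP1B) and PTPN2 (TC-PTP) are close relatives of each other. PTPN1 sits on the endoplasmic reticulum and acts on insulin receptor and JAK2 signalling, and PTPN2 acts on JAK1, JAK3 and STAT proteins. PTPN1 was 63.2, 63.5 and 63.5 CPM in treated SUDHL4 and 52.3, 56.3 and 55.5 CPM with DMSO, without overlap. It was 58.7, 58.8 and 47.5 CPM in treated SUDHL6 and 54.7, 48.9 and 39.7 CPM with DMSO, higher in each of the 3 numbered pairs. PTPN1 in Farage was 144.9, 145.0 and 160.6 CPM after the inhibitor and 143.2, 150.2 and 140.2 CPM with DMSO, with overlap. The test was passed in the mean of the lines (0.16, SE 0.0585, limma adjusted p = 0.021) and not in SUDHL6 (0.20, adjusted p = 0.0851), SUDHL4 (0.21, adjusted p = 0.0752) or Farage (0.05, adjusted p = 0.658). With median-of-ratios scaling PTPN1 passed in all 3 (limma adjusted p = 0.00235, 0.000165 and 0.00971).

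In SUDHL6, whose replicate numbers were taken to pair the samples, the fit with the replicate block called PTPN1 (0.20, limma adjusted p = 0.0212). Single libraries also decided it: PTPN1 passed in SUDHL6 without SUDHL6 DMSO replicate 1 (0.31, adjusted p = 0.0143) or treated SUDHL6 replicate 3 (adjusted p = 0.0127). In SUDHL4 it passed without SUDHL6 DMSO replicate 1 (adjusted p = 0.0485) or 3 (adjusted p = 0.031) or treated SUDHL6 replicate 3 (adjusted p = 0.0445).

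PTPN2 was 39.3, 40.0 and 40.0 CPM in treated SUDHL4 and 48.9, 46.0 and 50.1 CPM with DMSO. PTPN2 in Farage was 29.2, 26.8 and 29.6 CPM after the inhibitor and 30.9, 33.5 and 33.6 CPM with DMSO. PTPN2 in SUDHL6 was 20.0, 19.9 and 21.0 CPM after the inhibitor and 22.2, 18.9 and 25.0 CPM with DMSO. The groups were apart in SUDHL4 and Farage and overlapped in SUDHL6. At the deposited scale PTPN2 fell in SUDHL4 (log2 fold change -0.28, limma adjusted p = 0.00994) and in the mean of the lines (-0.19, adjusted p = 0.00245), but with median-of-ratios scaling both values were positive and not called (0.03, adjusted p = 0.812, and 0.05, adjusted p = 0.365). The SUDHL6 and Farage values were -0.10 (adjusted p = 0.314) and -0.19 (adjusted p = 0.0641). Farage passed without SUDHL6 DMSO replicate 2 (adjusted p = 0.0321) or 3 (adjusted p = 0.0357), and SUDHL6 without SUDHL6 DMSO replicate 2 (-0.20, adjusted p = 0.0421).

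The small changes depended on the scale. The median of all genes was -0.24 in the mean of the lines at the deposited scale and -0.045 with median-of-ratios scaling. Of the genes called, 35.8% were higher at the deposited scale and 47.4% with median-of-ratios scaling. PTPN2, at -0.19, lay close to the median gene, and PTPN11, PTPN12, PTPN1 and PTPN7 lay above it. With median-of-ratios scaling PTPN11, PTPN12 and PTPN1 were called higher in all 3 lines, and PTPN7 in SUDHL6, Farage and the mean. The falls of PTPN18, PTPRCAP and PTPRC were called in each line at either scale.

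**Figure D4:**
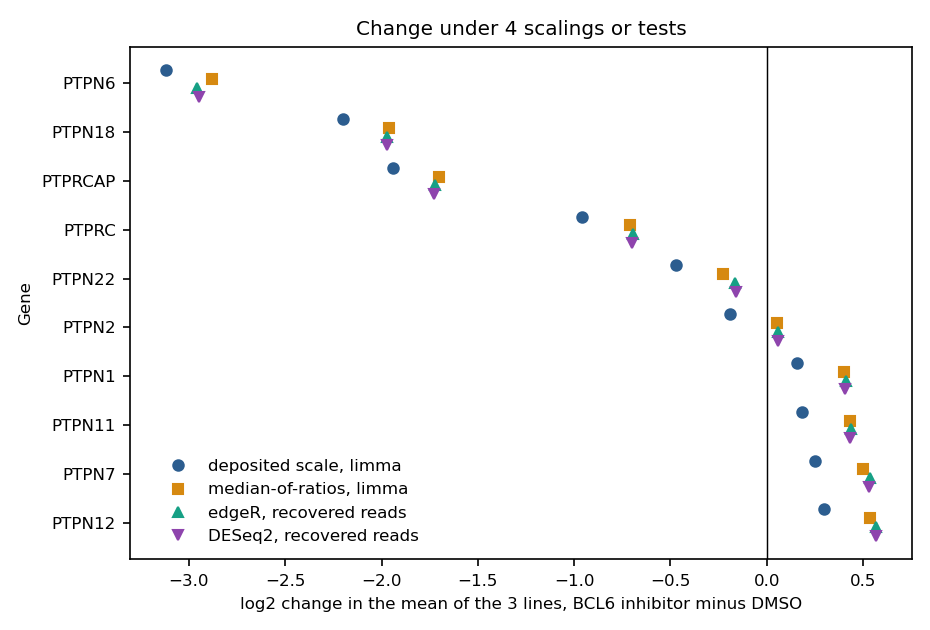
Log2 fold change of each gene in the mean of the 3 lines at the deposited scale, with median-of-ratios scaling and with edgeR and DESeq2 on the recovered reads. PTPN2 lies at -0.19 at the deposited scale and at 0.05 to 0.06 under the other 3, and the order of the strongly lower genes (PTPN6, PTPN18, PTPRCAP, PTPRC) is the same under all 4.

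**Figure D5:**
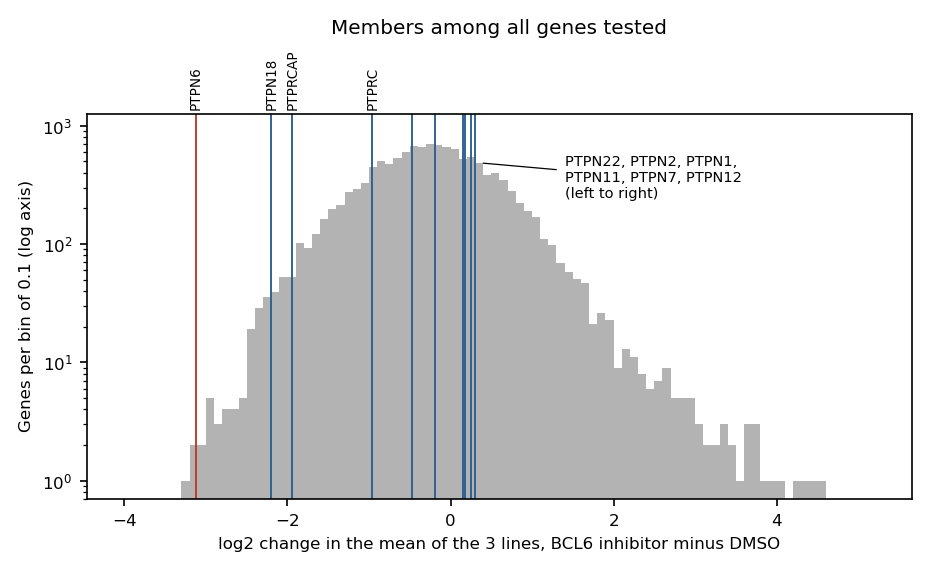
Histogram of the log2 fold changes of all 12769 genes tested in the mean of the 3 lines (log count axis), with the 10 genes marked. PTPN6 at -3.12 lies in the far left tail, PTPN18 and PTPRCAP at -2.20 and -1.94 in the left tail, and the other 7 between -0.96 and 0.30.

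The lines also differed in these genes with DMSO: 9 of the 10 levels differed among the lines, PTPN22 being the exception (limma F-test, adjusted p = 0.256), where 88.2% of all genes did. PTPN6 is among the 9, but its DMSO levels enter the fall for which it was chosen, so its place there supports nothing further. Farage had the most PTPN1, at 144.6 ± 5.13 CPM against 47.8 ± 7.54 CPM in SUDHL6 and 54.7 ± 2.16 CPM in SUDHL4 (SD, n = 3 each). It exceeded SUDHL6 by 1.59 and SUDHL4 by 1.39 on the log2 scale (adjusted p = 3.82e-10 and 2.4e-09), and SUDHL6 and SUDHL4 were not separated (adjusted p = 0.0863). PTPN18 was at 51.9 ± 2.16 CPM in Farage, 66.3 ± 2.7 CPM in SUDHL6 and 249.6 ± 25.6 CPM in SUDHL4, the highest. Farage lay below SUDHL4 (log2 difference -2.24, adjusted p = 9.85e-06), as did SUDHL6 (-1.89, adjusted p = 6.08e-05), and Farage and SUDHL6 were not separated (adjusted p = 0.342). PTPRC averaged 520.3 ± 30.3 CPM in Farage, 818.4 ± 39 CPM in SUDHL6 and 1256 ± 68.5 CPM in SUDHL4, likewise the highest, with each pair apart (adjusted p = 0.0023 for SUDHL6 and SUDHL4, the largest of the 3).

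Likeness to PTPN6 was measured as Pearson's r of log2(CPM + 1) across the 18 libraries, over 9677 other genes, as a description: the libraries share lines, treatment and depth. The genes most like it were ESD (r = 0.983), GLRX, PSMB9, IQSEC1, STAMBPL1, EXOSC9, ESCO2 and ECI2. GLRX, a glutaredoxin, averaged 8.25 CPM in treated SUDHL6 against 19.8 CPM with DMSO, 34.8 against 83.8 CPM in Farage and 13.5 against 62.0 CPM in SUDHL4. With each line's mean removed, so that only the response and the replicates count, the closest were SLC25A15 (r = 0.996), SRPK1, TTF2, PBK, BMS1, NUP93, PARP1 and ZNF544. None of the relatives was among either 8. With line means removed, r with PTPN6 was 0.937 for PTPN18, 0.934 for PTPRC, 0.848 for PTPRCAP, 0.822 for PTPN2 and 0.65 for PTPN22. It was negative for PTPN7 (-0.24), PTPN11 (-0.581), PTPN12 (-0.584) and PTPN1 (-0.646). All these r were taken at the deposited scale only. PTPN2's mean change was -0.19 at that scale and 0.05 with median-of-ratios scaling, and PTPN22's was -0.47 and -0.23. PTPN18, the relative with the highest r once line means were removed, ranked 1516 of the 9677 genes. With line means kept, the highest r of a relative was 0.628, for PTPN22 (rank 1595). It was then 0.614 for PTPN2, 0.509 for PTPN18, 0.431 for PTPRCAP, 0.417 for PTPN1, 0.374 for PTPRC and 0.355 for PTPN7. For PTPN11 and PTPN12 it was -0.139 and -0.422.

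Other tyrosine phosphatases and the proteins around them were counted in the mean of the lines, beside the 53.8% of all genes called lower and 30.1% called higher. Those shares hold for limma at the deposited scale, with an all-gene median of -0.24. Of all 12769 genes, median-of-ratios scaling called 5616 lower and 5067 higher (median -0.045). The numbers were 5123 and 4996 in edgeR (median -0.023), and 5181 and 5025 in DESeq2 (median -0.018). Of 10 other non-receptor tyrosine phosphatases 4 were tested, of which 3 fell (median log2 fold change of the 4 -0.49). PTPN3 fell in Farage, where it was at 1.27 ± 0.25 CPM after the inhibitor and 9.03 ± 0.329 CPM with DMSO (-2.15, limma adjusted p = 9.63e-12), and it was at or under 0.0722 CPM on average in the other lines. PTPN4 (-0.82) and PTPN23 (-0.29) also fell at the deposited scale, but PTPN23 was at -0.05 and not called in edgeR (adjusted p = 0.519), in DESeq2 (0.483) or after median-of-ratios scaling (0.448). Median-of-ratios scaling, edgeR and DESeq2 called 2, 1 and 1 of the 4 genes lower, and each called 1 higher. Of 19 receptor phosphatases other than PTPRC 9 were tested, of which 5 fell, PTPRA (-0.34) and PTPRG (-0.48) among them, and 3 rose (median -0.21). PTPRH, which rose (0.685), averaged 1.24 CPM in treated SUDHL4, under 1 CPM in every other group and at most 0.221 CPM with DMSO. It thus passed the filter through a treated group, where it was high, and its rise supports nothing further. PTPRG reached more than 2 CPM only in Farage. The receptor list depended on the method: with median-of-ratios scaling 4 of the 9 were called lower and 3 higher (median -0.03), in edgeR 1 lower and 4 higher (median 0.515), and in DESeq2 2 lower and 4 higher (median 0.523). PTPRG lost its call in edgeR (adjusted p = 0.376) and DESeq2 (0.386), and PTPRA in edgeR (0.0537).

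Of 27 inhibitory receptors and adaptors that bind PTPN6 or PTPN11, 23 were tested, of which 14 fell and 5 rose (median -0.53). SIT1, an adaptor that recruits PTPN11, averaged 11.2 ± 5.67 CPM in treated SUDHL6 against 123.9 ± 9.37 CPM with DMSO, 7.61 ± 0.873 against 55.2 ± 4.22 CPM in Farage, and 12.0 ± 0.838 against 80.4 ± 10.3 CPM in SUDHL4 (SD, n = 3 each). Its mean change was -2.94 (limma adjusted p = 1.95e-11). BTLA, an inhibitory receptor of B and T cells, fell by 2.29 (log2, adjusted p = 5.82e-12). PILRA, an inhibitory receptor of myeloid cells, rose by 1.26 (adjusted p = 3.32e-11), at 12.8 ± 1.16 CPM in treated SUDHL6 against 3.87 ± 0.547 CPM with DMSO.

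Of 12 proximal tyrosine kinases of antigen receptor signalling, which act against or downstream of these phosphatases, 11 were tested, of which 9 fell and 2 rose (median -1.24). BTK fell by 1.62 (log2, SE 0.053, limma adjusted p = 2.85e-13), and CSK, the kinase that places the phosphate PTPRC removes, fell by 1.81 (adjusted p = 7.23e-11). FYN, a Src family kinase, rose by 1.52 (adjusted p = 2.93e-12). Of 14 JAK and STAT signalling genes 11 were tested, of which 7 fell, TYK2 (-1.13) and STAT6 (-0.86) among them, and 3 rose, JAK1 (0.80) among them (median -0.58). Of 10 dual-specificity MAP kinase phosphatases 9 were tested, of which 3 fell and 6 rose (median 0.30). DUSP5 rose by 3.57 and DUSP1 by 2.66, and DUSP7 fell by 1.29 (adjusted p = 7.17e-11, 2.19e-11 and 3.34e-11). For this list edgeR and DESeq2 each called 2 lower and 6 higher, with medians of 1.48 and 1.48, beside all-gene medians of -0.023 and -0.018.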

How the data were processed

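RNA was sequenced from 18 libraries of 3 cell lines. The deposited values are CPM, the authors' counts per M reads for 23250 gene symbols. The submitters' processing notes name STAR and the hg19 build. Per the labels, a TruSeq RNA kit was used, and 1 sample names Rsubread. For the tool versions, annotation release and strand setting, the sources used here give nothing. Whole reads were recovered from 100% of the deposited CPM values, within 0.01 reads. The listed genes made up 74.63 to 80.72% of the reads behind each library's CPM.

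A gene was tested where 3 or more of the 18 libraries had 1 CPM or more (12769 genes). limma 3.58.1 (R 4.3.3) was fitted to log2(CPM + 1) with an intensity trend in the variance and a mean for each of the 6 groups (12 residual degrees of freedom). The pseudocount of 1 understates the change of low genes. Two-sided p-values were adjusted over all genes tested by the Benjamini-Hochberg method, at a threshold of 0.05. PTPN6's change was given without a test, because PTPN6 was chosen for it. Its DMSO levels were tested only within the count of levels that differed among the lines. The members and gene lists were chosen with earlier results of these data known. All 10 members are named. Of each further list, up to 3 called members of smallest p are named, and likeness to PTPN6 takes the 8 genes of highest Pearson correlation. From these lists 2 genes are not reported here and are left out of the list counts and sums.

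In SUDHL6 the same-numbered replicates deviated together (correlations of the deviations from the group means of 0.42, 0.49 and 0.63), and the numbers were taken to pair the samples there. Replicate 3 was the shallowest library of both SUDHL6 groups, with 7.36 M reads with DMSO and 6.29 M after the inhibitor. The part of depth in these correlations was not tested. The main fit does not use the pairing, and the replicate block is an alternative. Whether replicates were separate cultures is not in the labels, so the spread behind each p-value may be technical. No pair of replicates agreed within sampling noise (lowest chi-square per degree of freedom 1.82).

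The settings varied were the pseudocount (0.25), the filter (none, with 19369 genes, or a mean of 5 CPM, with 9678), median-of-ratios scaling, a replicate block (6 residual degrees of freedom), a separate fit per line, a minimum fold of 1.5 and the omission of each library. The recovered reads were tested with DESeq2 1.42.0 and with edgeR 4.0.16 (TMM, quasi-likelihood). A fit without both libraries that lay apart was added after the data were seen. The fits were tested on simulated data. Promoter sequences are RefSeq's, on GRCh38.p14; apart from these windows no coordinates are given, because the values were made on hg19.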

Additional observations from a re-analysis of the deposited data

Results flagged for a closer look

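The response of 2 of the 9 relatives differed among the lines by the F-test of the difference itself, where 55.9% of all genes did: PTPN11 (adjusted p = 0.00192) and PTPRCAP (adjusted p = 0.000216), both by limma. PTPN11 changed by 0.42 in SUDHL6, -0.00145 in Farage and 0.13 in SUDHL4 on the log2 scale, and PTPRCAP by -2.49, -2.46 and -0.87. Without treated SUDHL6 replicate 1 the count was 6 of 9, beside 8015 of 12709 genes: PTPN11, PTPRCAP, PTPN12, PTPN18, PTPN22 and PTPN7.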

How the results depend on the processing

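PTPN18, PTPRCAP and PTPRC were called lower in each line under every alternative run, and in the mean under each that gives one (a separate fit per line does not), and PTPN6 was lower throughout. The number of relatives called higher was less stable. With median-of-ratios scaling, edgeR or DESeq2 it was 4 in SUDHL6, 4 in Farage and 3 in SUDHL4, and the number called lower in the mean was 3. The calls over all 12769 genes shifted too. At the deposited scale 3424, 3246 and 3102 genes were higher in SUDHL6, Farage and SUDHL4. The numbers were 4249, 4321 and 4423 with median-of-ratios scaling, 4388, 4322 and 4588 in edgeR, and 4336, 4413 and 4563 in DESeq2. Lower in the mean were 6876 genes at the deposited scale, and 5616, 5123 and 5181 under these 3. Responses that differed among lines numbered 4 in edgeR and in DESeq2 (PTPN11, PTPRCAP, PTPN12 and PTPN18), beside 6418 and 6870 of all 12769 genes. In the fit with the replicate block, 2 relatives were called higher in SUDHL6, 1 in Farage and 3 in SUDHL4. Of all 12769 genes 3596, 3386 and 3295 were. With a separate fit per line, Farage had 5 lower and 1 higher, beside 6735 and 3820 of 12769 genes. SUDHL4 had 3 higher, beside 3515 genes. Calls were gained for PTPN2, PTPN22 and PTPN7 in Farage (limma adjusted p = 0.017, 0.000132 and 0.000135) and PTPN1, PTPN11 and PTPN22 in SUDHL4 (0.00532, 0.0196 and 0.00186). With a minimum fold of 1.5, 0 were called higher in SUDHL6, SUDHL4 or the mean, beside 2099, 1973 and 1871 of 12769 genes. In the mean 3 were lower, beside 4079 genes. Without both libraries that lay apart, 3 were called higher in SUDHL6 and 1 in Farage, beside 3418 and 3336 of 12649 genes. There 6 responses differed among lines, beside 7875 genes.

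With 1 library left out, the number lower was 3 to 4 in SUDHL6, 3 to 4 in Farage, 4 to 5 in SUDHL4 and 4 to 5 in the mean. Over all genes, of which 12664 to 12727 were then tested, it was 4931 to 5410, 5466 to 6146, 5475 to 6084 and 6654 to 6942. The number higher was 1 to 3 in SUDHL6, 0 to 1 in Farage, 1 to 3 in SUDHL4 and 3 to 4 in the mean. Over all genes it was 3215 to 3468, 2974 to 3343, 2875 to 3222 and 3712 to 3868. Responses that differed among lines numbered 2 to 6, beside 6408 to 8015 genes, and DMSO levels that did 9 to 10, beside 10822 to 11552 genes.

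Some values changed sign. In SUDHL6, Farage, SUDHL4 and the mean, PTPN2 was 0.0703, 0.0593, 0.0286 and 0.0527 with median-of-ratios scaling, 0.0923, 0.0479, 0.04 and 0.0601 in edgeR, and 0.089, 0.0625, 0.0284 and 0.06 in DESeq2. PTPN7 in SUDHL4 was 0.298, 0.315 and 0.302 under these 3, and between -0.0646 and 0.0343 with 1 library left out. PTPN11 in Farage was 0.253, 0.239 and 0.253 under these 3, and between -0.0287 and 0.0161 with 1 library left out. PTPN22 in SUDHL6 was 0.141 in edgeR and 0.147 in DESeq2. With 1 library left out it was between -0.725 and 0.36, the upper value without treated SUDHL6 replicate 1, as also without both libraries that lay apart. The cause of these changes was not tested.

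The replicate numbers did not pair the samples in Farage (correlations of the deviations 0.17, -0.13 and -0.19) or SUDHL4 (-0.05, 0.03 and -0.07). There the replicate block moved the calls of PTPN7 in Farage (adjusted p = 0.0434) and in the mean (0.0499) and of PTPN1, PTPN11 and PTPN22 in SUDHL4 (0.0179, 0.0457 and 0.00577). DMSO levels between lines could not be fitted with the block, since each number belongs to 1 line. On the recovered reads edgeR called 4996 genes higher and 5123 lower, as a mean over the lines. Depth, at most 0.362 CPM for 3 reads, limits none of the 10 genes.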
